A study of Mus musculus with 4 samples.

Results

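The messenger RNAs described here are those of 8 genes of the extracellular matrix, taken by symbol: Col1a1, Col1a2, Col3a1, Col4a1, Col4a2, Col6a1, Fn1 and Sparc. All 8 were present, each as 1 gene ID, among the 47069 gene IDs of the table, of which 21637 carry the protein-coding biotype. The RNA came from C57BL/6 mice inoculated under the skin with Lewis lung carcinoma (LLC), an established mouse lung carcinoma line, with tumours taken after 3 weeks. No genotype, allele, age or treatment arm is given, and the labels do not say whether replicates were separate animals or pools. The primary tumour group (2 libraries) is whole tissue, which holds host stroma and blood beside the carcinoma cells. The tumour-derived exosome group (2 libraries) comes from cut tumour kept in serum-free RPMI for 12 h, whose medium was cleared by centrifugation, passed through a 0.2 µm filter and precipitated with ExoQuick-TC. Vesicles of every cell type in the tumour, and whatever else the reagent brings down, are therefore pooled in it. The comparison asks how the RNA of the vesicles differs from that of the tumour.

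Collagens are secreted as triple helices, and glycine recurs at every 3rd residue of each chain because no larger side chain fits the centre of the helix. Type I collagen (Col1a1 and Col1a2 chains) and type III collagen (Col3a1) form the fibrils of connective tissue, and fibroblasts are their classic source. Type IV collagen (Col4a1 and Col4a2 chains) is the network of basement membranes under endothelium and epithelium, and type VI collagen (Col6a1 among its chains) forms beaded filaments. Fibronectin (Fn1) is the adhesive glycoprotein bound by integrins, and Sparc is a secreted collagen-binding protein. Tumour stroma is rich in these products.

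The sequence feature that unites the 6 collagen messages, and that separates them from Fn1 and Sparc, is a glycine codon (GGN) repeated at a spacing of 3 codons. A stretch of 72 bases from the start of the longest such run in the coding sequence (GENCODE M21 transcripts, GRCm38, 5′ to 3′) is shown for 1 chain of each collagen type, with the repeated glycine codons in capitals.
Col1a1: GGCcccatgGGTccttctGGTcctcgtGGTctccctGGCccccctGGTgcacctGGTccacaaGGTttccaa
Col3a1: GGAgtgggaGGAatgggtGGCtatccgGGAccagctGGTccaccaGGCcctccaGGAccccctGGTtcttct
Col4a1: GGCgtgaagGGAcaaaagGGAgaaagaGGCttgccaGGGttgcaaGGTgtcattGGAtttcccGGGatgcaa
Col6a1: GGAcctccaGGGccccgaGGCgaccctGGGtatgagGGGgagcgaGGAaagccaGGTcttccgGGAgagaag
The unbroken run held 338 glycine codons in Col1a1, 339 in Col1a2 and 344 in Col3a1, against 40 in Col4a1, 66 in Col4a2 and 87 in Col6a1, whose helices are interrupted or shorter. In Fn1 and Sparc the longest run was 2, which is also the median over 21787 coding genes. Only 64 of those genes had a run of 20 or more, and 48 of the 64 carry a symbol that starts with Col. GC content of the coding sequence lay between 54.2% (Fn1) and 63.0% (Col1a1).

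Col4a1 and Col4a2 lie head to head on chromosome 8. Their 5′ ends overlap by 22 bases in the annotation, so reads from those bases cannot be assigned without strand. The promoter windows of RefSeq (GRCm38.p6, 300 bases around each start) share 78 bases, given in capitals in the windows of Col4a1 (chr8:11312777-11313076, minus strand) and Col4a2 (chr8:11312555-11312854, plus strand), because the messages of this pair are set side by side further on.
Col4a1: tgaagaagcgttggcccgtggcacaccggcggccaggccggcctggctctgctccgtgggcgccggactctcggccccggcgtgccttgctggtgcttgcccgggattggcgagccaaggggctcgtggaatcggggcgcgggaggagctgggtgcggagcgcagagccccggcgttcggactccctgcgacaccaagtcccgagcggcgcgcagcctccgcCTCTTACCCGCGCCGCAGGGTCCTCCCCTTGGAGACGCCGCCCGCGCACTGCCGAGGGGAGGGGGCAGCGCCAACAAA
Col4a2: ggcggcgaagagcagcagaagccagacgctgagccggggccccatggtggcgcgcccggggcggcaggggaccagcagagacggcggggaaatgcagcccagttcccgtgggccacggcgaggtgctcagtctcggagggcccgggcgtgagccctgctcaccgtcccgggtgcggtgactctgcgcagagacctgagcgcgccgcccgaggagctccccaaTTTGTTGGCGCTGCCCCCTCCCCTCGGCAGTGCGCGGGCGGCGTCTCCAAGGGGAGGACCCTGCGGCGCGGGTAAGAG
Their GC contents, 74.0% and 73.7%, are reached by 4.77% and 5.10% of all 32851 promoter windows. Both windows hold GGGCGG and CCAAT, each searched on both strands, which 35.7% and 37.4% of all windows hold, and neither holds TATAAA, which 13.6% hold. Among the 6 members with a window, GGGCGG and CCAAT were found in Col1a2, Col4a1 and Col4a2, and TATAAA in Col3a1 alone.

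The exosome libraries held 305751 and 217201 gene counts and the tumour libraries 14543691 and 10849811, so 1 count is worth 3.27 or 4.60 CPM, the count scaled to the library total, in exosomes and 0.0688 or 0.0922 in tumour. Small nucleolar RNA took 81.2% and 82.5% of the tumour counts, and small nuclear RNA 49.0% and 50.9% of the exosome counts. Protein-coding genes held 2.83% and 3.30% of exosome counts and 1.55% and 1.58% of tumour counts. Every statement of higher or lower therefore depends on what a gene is measured against. The scaling used for the test, TMM, sets each library by its typical tested gene. Over the 1442 tested genes the median log2 difference (exosomes minus tumour) was 0.018 with TMM and 2.75 with library totals, and the members' differences are read against that shift. A further scaling uses the totals of coding genes alone, without Snrpb, histone and mitochondrial genes and coding genes whose body overlaps an annotated small RNA gene, and it places that median at −0.33. Intervals below are exact 95% intervals and cover counting error only, since the reads were amplified without molecular identifiers.

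Summed over the 8 genes, the counts were 83 and 62 in exosomes and 492 and 317 in tumour. As a share of all gene counts this was 0.0272% (exact binomial 95% interval 0.0216% to 0.0337%) and 0.0285% (0.0219% to 0.0366%) in exosomes, and 0.00338% (0.00309% to 0.00369%) and 0.00292% (0.00261% to 0.00326%) in tumour. Both exosome libraries thus lay above both tumour libraries, with means of 0.0279% ± 0.000989 and 0.00315% ± 0.000326 (SD, n = 2), a ratio of 8.83 or 3.14 on the log2 scale. Against coding messages the ratio depended on which were counted. Over all protein-coding counts the shares were 0.961% and 0.866% in exosomes and 0.218% and 0.185% in tumour, a log2 ratio of 2.18. Set against the selected coding counts, the sum came to 1.18% and 1.03% in exosomes and 1.15% and 1.07% in tumour. These ranges overlap, with a log2 ratio of −0.01. Col3a1, with a small RNA gene in its body, is in the sum but not in this denominator, so the values are ratios and not shares. Yipf1, a Golgi protein gene, alone has 884 and 1568 of the exosome counts in that denominator. Without it the ratio was 0.29 (1.38% ± 0.0361 against 1.12% ± 0.0563, SD, n = 2). With TMM it was 0.35, with sums of 115 and 99.0 CPM in exosomes above 87.4 and 80.1 CPM in tumour. With 2 libraries a group the smallest p an exact two-sided permutation test can give is 0.33, and the sum was not tested.

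**Figure D1:**
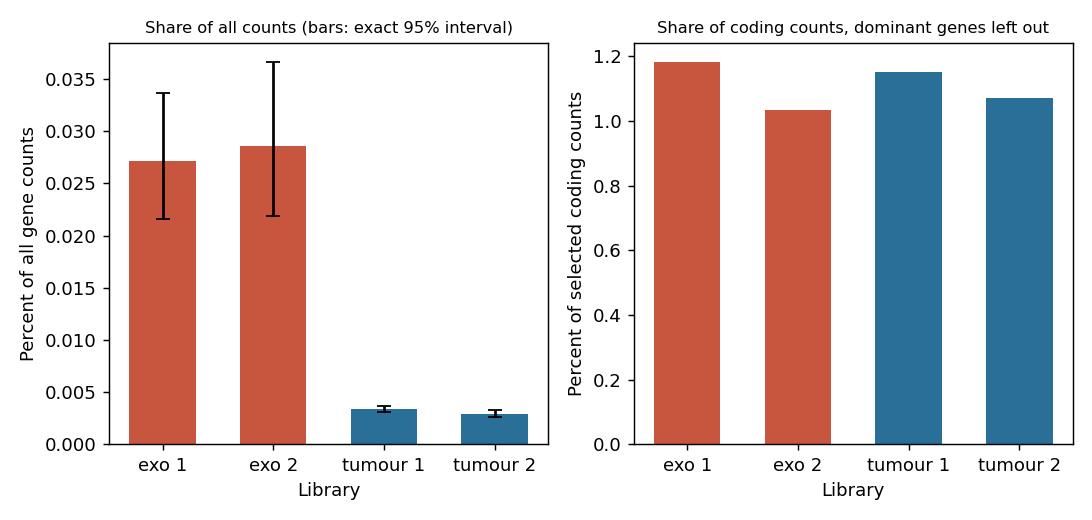
Summed counts of the 8 genes in each library, as a percent of all gene counts (left, error bars are exact binomial 95% intervals) and as a percent of coding counts without Snrpb, histone, mitochondrial and small RNA-overlapping genes (right). Col3a1 is in the sum on the right but not in those coding counts. On the left the exosome libraries stand at 0.0272% and 0.0285% and the tumour libraries at 0.00338% and 0.00292%, and on the right all 4 lie between 1.03% and 1.18%.

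The members differ in length as the authors counted it, from 4423 bases (Sparc) to 18077 (Fn1), so levels between genes are compared only as FPKM. In tumour the order of mean FPKM was Fn1 (1.02), Col3a1 (0.615), Col6a1 (0.515), Col4a1 (0.245), Col4a2 (0.207), Sparc (0.0779), Col1a1 (0.0629) and Col1a2 (0.00993). In exosomes it was Col4a1 (7.30), Col3a1 (6.33), Fn1 (4.77), Sparc (4.45), Col4a2 (3.82), Col6a1 (1.95), Col1a1 (1.80) and Col1a2 (0.344). Col4a1 moved from the 4th place to the 1st and Fn1 from the 1st to the 3rd. These places hold for the authors' lengths, 18077 bases for Fn1, 10734 for Col3a1 and 7051 for Col4a1. The annotated exonic lengths are 11685, 9816 and 7464 bases, and the order was not computed with them. With the annotated lengths the level per base of Fn1 is higher in both groups and that of Col4a1 is lower. The places of Fn1 and Col4a1 in exosomes are therefore not settled. Neighbours whose library ranges overlapped in exosomes were Fn1 with Sparc, Sparc with Col4a2 and Col6a1 with Col1a1. In tumour they were Col3a1 with Col6a1, Col4a1 with Col4a2 and Sparc with Col1a1. Ranges of 2 libraries leave out counting error. The order of Col4a1, Col3a1 and Fn1 in exosomes rests on 11 to 26 counts a library and was not tested. The FPKM of a library is scaled to its own total, so the height of the exosome values over the tumour values carries the same dependence as the shares.

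**Figure D2:**
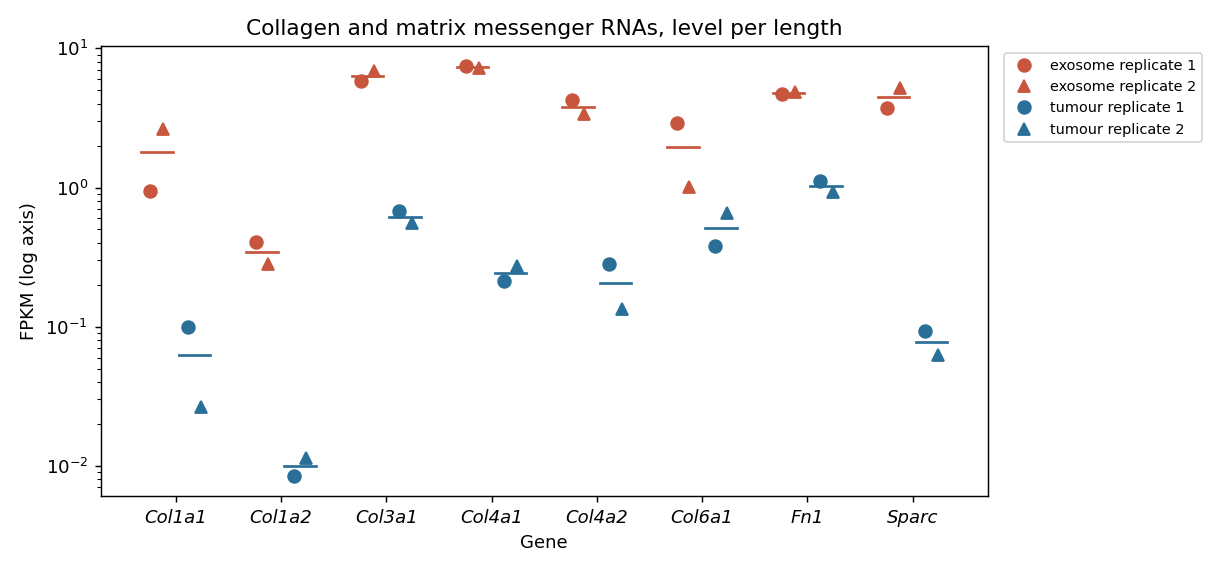
FPKM of the 8 genes (log axis) in each of the 4 libraries; circles are replicate 1, triangles replicate 2 and lines the mean of each group. With the authors' gene lengths, Col4a1 leads the exosome libraries (mean 7.30) and Fn1 the tumour libraries (mean 1.02), and Col1a2 is lowest in both.

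For the test across all genes, 7 of the 8 members had enough counts and Col1a2, with 7 counts in all, did not. Only Fn1 and Col3a1 reached the filter level of 1.79 CPM in both tumour libraries. The other 5 were admitted through the exosome libraries, where a single count already exceeds that level, and a count or median over the 7 is for that reason no support for a direction. With TMM, 2 of the 7, Col4a1 and Sparc, were higher in exosomes at an adjusted p of 0.05, beside 16.0% of all tested genes and 5.35% of the 954 tested protein-coding genes. None was lower by edgeR, with 1 (Fn1) lower at an unadjusted p under 0.05 and 0 by DESeq2, beside 22.1% of all tested genes and 10.5% of coding genes. The median log2 difference of the 7 was 1.40, beside 0.018 over all tested genes and 0.06 over coding genes. Both exosome libraries lay above both tumour libraries for 5 of the 7 with TMM, beside 28.7% of all tested genes and 23.2% of coding genes, and for 7 of 7 with library totals, beside 77.2% and 87.1%. By the test, library totals called all 7 higher, beside 63.8% of all tested genes and 69.2% of coding genes. Coding-gene totals called Col4a1 and Sparc higher, beside 14.4% and 3.77%, and Fn1 lower, beside 26.4% and 15.3%. The call of Fn1 was lost with Yipf1 left out of those totals.

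**Figure D3:**
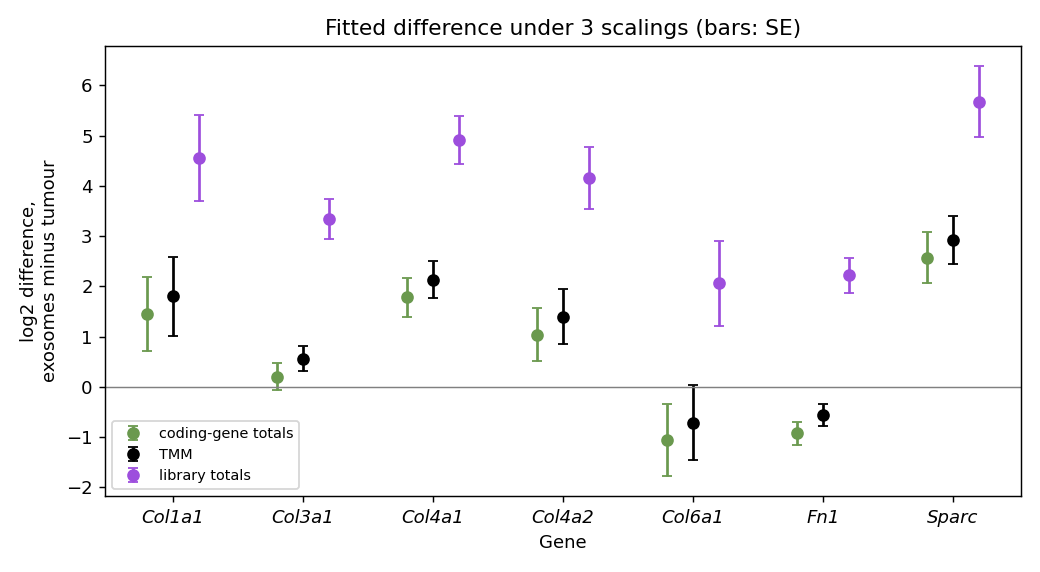
Fitted log2 difference, exosomes minus tumour, with its SE for the 7 tested members under coding-gene totals, TMM and library totals. Library totals raise every gene, and the order among the genes is kept with Sparc highest; Fn1 and Col6a1 lie below 0 with coding-gene totals and TMM and above 0 with library totals.

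Among the fibrillar collagens, Col3a1 (ENSMUSG00000026043, chromosome 1, 45311538 to 45349706, GRCm38) was the most abundant. It had 19 and 16 exosome counts and 105 and 65 tumour counts. After TMM scaling these became 26.3 and 25.6 CPM in exosomes and 18.7 and 16.4 CPM in tumour, so that the groups did not overlap but lay close together. The difference of 0.56 (SE 0.25) did not pass the test (edgeR adjusted p = 0.138). It was −0.62 when no filter was applied, 1.0 and called among genes with at least 10 counts in at least 2 libraries (edgeR adjusted p = 0.0146), and 3.34 with library totals. The medians over all genes in these fits were −1.86, −0.51 and 2.75. A small RNA gene, Gm47302, is annotated within the Col3a1 body and had no count in any library.

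Both chains of type I collagen had few counts, although their protein is the main fibrillar collagen of connective tissue. Most coding genes had fewer still. As many exosome counts as Col1a1 were reached by 1.56% of the 21637 coding genes, and as many as Col1a2 by 6.01%. In tumour these were 8.31% and 24.8%. Col1a1 (ENSMUSG00000001506, chromosome 11, 94936224 to 94953042) had 2 and 4 counts in exosomes and 10 and 2 in tumour. Its level in tumour replicate 1, 0.688 CPM (interval 0.330 to 1.26), was above that in tumour replicate 2, 0.184 CPM (0.0223 to 0.666), with intervals that overlap. Its difference of 1.80 (SE 0.78) missed the threshold with TMM (edgeR adjusted p = 0.120) and passed it without tumour replicate 1 (2.97, edgeR adjusted p = 0.0104). Col1a2 (ENSMUSG00000029661, chromosome 6, 4504814 to 4541544) had 2 and 1 counts in exosomes and 2 and 2 in tumour, at or under the floor of 3 counts in every library, and no fold is given. A ratio between the 2 chains, which pair in a fixed proportion in the protein, cannot be read at this depth: Col1a1 over Col1a2 was 1 and 4 in exosomes and 5 and 1 in tumour.

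The basement membrane collagen Col4a1 (ENSMUSG00000031502, chromosome 8, 11198423 to 11312826) had 16 and 11 counts in exosomes and 22 and 21 in tumour, although the tumour group held 48.6 times as many counts in all. Its level was 52.3 CPM (interval 29.9 to 85.0) and 50.6 CPM (25.3 to 90.6) in exosomes, against 1.51 CPM (0.948 to 2.29) and 1.94 CPM (1.20 to 2.96) in tumour. The exosome replicates agree within sampling noise, and no interval of one group reaches the other, also after TMM scaling (from 8.77 in exosomes, to 8.12 in tumour). With TMM the means were 19.9 ± 3.24 and 4.61 ± 0.989 CPM (SD, n = 2). Col4a1 rose by 2.13 (SE 0.37, edgeR adjusted p = 0.0022). It entered the test only through the exosome libraries, where it was high, and its call is not independent of that filter. It was called in 15 of 16 alternatives and was 0.96 and not called only when no filter was applied (edgeR adjusted p = 0.287, beside a median of −1.86 over all genes). With coding-gene totals, where the median of tested genes is −0.33, the difference was 1.78.

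Its partner Col4a2 (ENSMUSG00000031503, chromosome 8, 11312805 to 11449287) had 9 and 5 counts in exosomes and 28 and 10 in tumour. With TMM the exosome libraries stood at 12.5 and 7.98 CPM and the tumour libraries at 4.98 and 2.53 CPM, without overlap. The difference of 1.40 (SE 0.54) was not called (edgeR adjusted p = 0.0860). Without tumour replicate 1 it was 2.00 and called (edgeR adjusted p = 0.0219). The ratio of Col4a1 to Col4a2 counts, which no scaling affects, was 1.78 and 2.20 in exosomes and 0.786 and 2.1 in tumour, so the ratios of the groups overlap.

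Markers of endothelium, a cell type that lays down basement membrane, were summed beside Col4a1. Of 12 such markers 10 had a count, and their sum was 12 and 6 counts in exosomes and 21 and 15 in tumour, or 16.6 and 9.58 against 3.73 and 3.79 CPM after TMM scaling. Emcn and Esam were at 0 in every library. The receptor genes Kdr and Flt1 had tumour counts only (2 and 1, and 1 and 2), and the receptor gene Tie1 exosome counts only (3 and 1). At such counts absence from a group is no measure of a difference. Cdh5, the endothelial cadherin and the 1 marker tested, had a difference of 1.54 (edgeR adjusted p = 0.151) and entered the test only through the exosome libraries. The part of these markers in the Col4a1 difference was not tested. In the bulk tumour libraries the number of cells of a type and the RNA per cell cannot be told apart. The exosome libraries hold pooled vesicle RNA and not cells. Markers of fibroblasts and pericytes, 11 of 14 with a count, overlapped between the groups, with sums of 9.69 and 4.79 TMM-scaled CPM in exosomes and 8.71 and 5.81 in tumour. Pdgfra, the receptor that defines many fibroblasts, had no exosome count and 9 and 5 tumour counts. Thy1, Pdpn, Notch3 and Dpt also had tumour counts only, of at most 2 in a library. Acta2 and Rgs5, genes of contractile and mural cells, had exosome counts only, of 1 and 1 and of 2 and 1. Pdgfrb, Dcn, Lum and Twist1 had counts in both groups, of at most 2 in an exosome library. So few counts do not show a difference in any single marker.

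Type VI collagen was not called in either direction with TMM. Col6a1 (ENSMUSG00000001119, chromosome 10, 76708792 to 76726168) had 4 and 1 exosome counts and 25 and 32 tumour counts. The TMM-scaled levels overlapped, at 5.53 and 1.60 CPM in exosomes and 4.44 and 8.09 CPM in tumour. The difference of −0.71 (SE 0.74, edgeR adjusted p = 0.565) turned to 2.06 with library totals (edgeR adjusted p = 0.0276). With TMM it was −1.89 without exosome replicate 1 and −0.14 without exosome replicate 2, neither called. Whether it differs from Col4a1 was not tested. Col6a2, the gene of another type VI chain, had 3 and 4 exosome counts against 15 and 14, and a difference of 0.76 (edgeR adjusted p = 0.388).

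Fibronectin had the most counts of the 8 genes in every library. Fn1 (ENSMUSG00000026193, chromosome 1, 71585520 to 71653200) had 26 and 19 exosome counts and 294 and 182 tumour counts. After TMM scaling the exosome libraries stood at 36.0 and 30.3 CPM, below both tumour libraries at 52.3 and 46.0 CPM, an arrangement shown by 38.1% of all tested genes and 31.3% of coding genes. The difference of −0.56 (SE 0.22) did not pass the test (edgeR adjusted p = 0.0854). With coding-gene totals, where the median of tested genes is −0.33, it was −0.92 and called (edgeR adjusted p = 0.00757). With Yipf1 left out of those totals it was −0.63 and not called (edgeR adjusted p = 0.109). With library totals it turned to 2.22 (edgeR adjusted p = 3.62e-07), below the median of 2.75 over all tested genes.

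Sparc (ENSMUSG00000018593, chromosome 11, 55394500 to 55423183) had the largest fitted difference of the 7 tested members. Its counts were 5 and 5 in exosomes and 6 and 3 in tumour, which is 16.4 CPM (interval 5.31 to 38.2) and 23.0 CPM (7.48 to 53.7) against 0.413 CPM (0.151 to 0.898) and 0.277 CPM (0.0570 to 0.808). The groups did not overlap, and on this scale neither did their intervals, a scale on which the groups of 77.2% of all tested genes lay apart in the same direction. After TMM scaling the levels were 6.92 and 7.98 CPM in exosomes and 1.07 and 0.758 CPM in tumour, and there the interval of exosome replicate 1 (from 2.25) reached that of tumour replicate 1 (to 2.32). Sparc rose by 2.92 (SE 0.48, edgeR adjusted p = 0.00177), or 2.57 with coding-gene totals. Sparc entered the test only through the exosome libraries, where it was high, so its call is not independent of the filter. The call held in 14 of 15 alternatives and was lost when no filter was applied (1.76, edgeR adjusted p = 0.216, beside a median of −1.86 over all genes). It rests on 19 counts in all, and Sparc could not enter the test restricted to genes with at least 10 counts in at least 2 libraries.

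The make-up of the summed counts does not depend on any scaling between libraries. Fn1 held 31.3% (interval 21.6% to 42.4%) and 30.6% (19.6% to 43.7%) of them in exosomes and 59.8% (55.3% to 64.1%) and 57.4% (51.8% to 62.9%) in tumour. Col4a1 held 19.3% (11.4% to 29.4%) and 17.7% (9.20% to 29.5%) in exosomes and 4.47% (2.82% to 6.69%) and 6.62% (4.15% to 9.95%) in tumour. Sparc held 6.02% (1.99% to 13.5%) and 8.06% (2.67% to 17.8%) against 1.22% (0.449% to 2.64%) and 0.946% (0.196% to 2.74%), with intervals that overlap in part. The Fn1 intervals of the groups were apart, and those of Col4a1 were apart except that exosome replicate 2 (from 9.20%) reached tumour replicate 2 (to 9.95%). Col3a1 kept a like share, 22.9% and 25.8% in exosomes and 21.3% and 20.5% in tumour. There were thus 0.615 and 0.579 Col4a1 counts for each Fn1 count in exosomes, and 0.0748 and 0.115 in tumour. These shares sum to a whole, so a higher share of one member lowers the others.

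**Figure D4:**
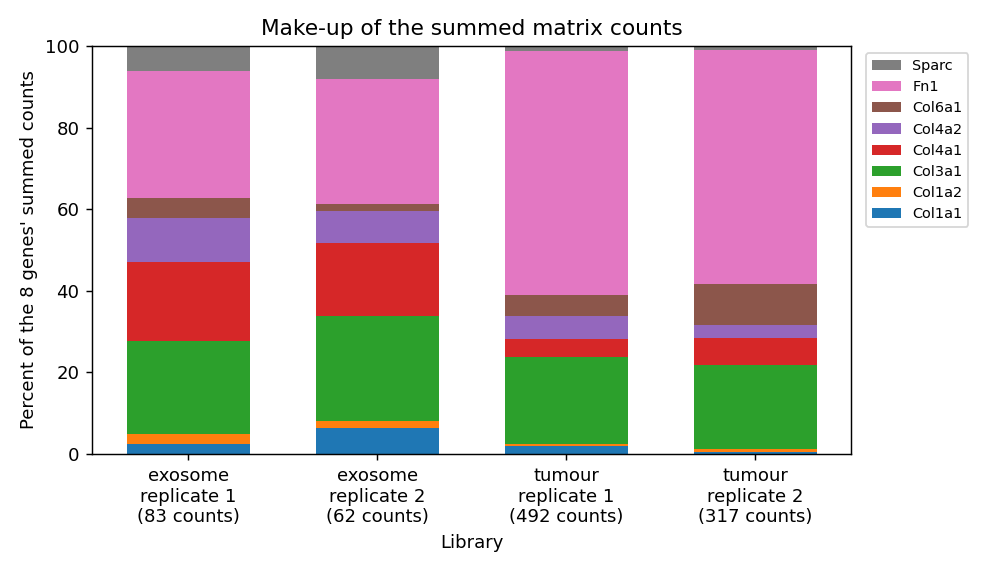
Each member's percent of the 8 genes' summed counts in every library, with the summed count below each bar. Fn1 takes 31.3% and 30.6% of the exosome bars and 59.8% and 57.4% of the tumour bars, while Col4a1 takes 19.3% and 17.7% against 4.47% and 6.62%.

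Since small RNAs fill these libraries, the members' transcripts were searched for likeness to them. Matches of at least 80% identity over at least 30 bases to any of 953 small RNA genes with a count were found in 5 members. In Fn1, Sparc, Col1a1 and Col4a1 the matched small RNAs had at most 3 counts in an exosome library, among them Gm27773, 95.2% identical over 62 bases of Fn1 and without an exosome count. The match of Col4a2 was to Rn7s6, a 7SL-type RNA, at 81.6% over 49 bases on the opposite strand. Rn7s6 had 26 and 29 exosome counts and 325 and 159 tumour counts, and its part in the Col4a2 counts was not tested.

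Across the rest of the matrix, 214 further genes in 9 lists were looked up. A count was present for 147 of them, in exosomes for 105 and in tumour for 140, and 40 were tested. As with the members, genes low in tumour could enter the test through the exosome libraries. A count or median over the 40 is therefore no support for a direction. With TMM, 1 was higher, beside 16.0% of all tested genes and 5.35% of coding genes, and 2 were lower, beside 22.1% and 10.5%. The median log2 difference of the 40 was 0.11, beside 0.018 over all tested genes. The summed counts of these genes after TMM scaling were 275 and 230 CPM in exosomes and 249 and 253 CPM in tumour, which overlap. With library totals 31 were higher and 0 lower, beside 63.8% and 11.5% of all tested genes. The call higher was Tgfbr2, the type II TGF-beta receptor (2.46, SE 0.81, edgeR adjusted p = 0.0489), on 1 and 7 exosome counts against 6 and 4. It was under the filter level in tumour and entered the test only through the exosome libraries, so its call is not independent of the filter. Without exosome replicate 2 its difference was 0.38. The calls lower were Lamb1, a laminin chain of basement membranes (−1.37, SE 0.41, edgeR adjusted p = 0.0339), with 4 and 3 against 71 and 57 counts, and Fbn1, the microfibril protein fibrillin (−2.66, SE 0.83, edgeR adjusted p = 0.0383), with 1 and 1 against 40 and 50. Lamb1 lost its call with any 1 of the 4 libraries left out (−1.48 to −1.27, edgeR adjusted p = 0.0963 to 0.214), and Fbn1 with any but tumour replicate 1 left out. With library totals Lamb1 was at 1.40 and Fbn1 at 0.08.

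By role, none of 3 tested fibril-forming or fibril-associated collagens passed, with Col5a1 at 0.40, Col16a1 at 1.10 and Col5a3 at 1.65, and none of 3 other collagens, with Col18a1 at −0.36 and Col7a1 at 1.04. Of 6 tested basement membrane genes only Lamb1 passed. Hspg2, which encodes the heparan sulfate proteoglycan perlecan, was at 0.11 with 14 and 9 exosome counts against 93 and 59 (a small RNA gene lies in its body, as in those of Col5a3, Col7a1, Loxl2 and Cd44), and Nid1, the linker protein nidogen, was at 0.07. Whether Col4a1 differs from these partners was not tested. Of 6 glycoproteins and matricellular genes only Fbn1 passed, while Thbs1, the adhesive protein thrombospondin, was at −0.29 and Spp1, osteopontin, at −0.24. The 1 tested proteoglycan gene, Vcan, was at −0.28 and not called. None of 6 genes of collagen synthesis and crosslinking passed, among them P4hb at −1.38, the prolyl hydroxylase subunit, Plod2 at 0.10, a lysyl hydroxylase, and Loxl2 at 1.12, a crosslinking oxidase. None of 4 tested proteases and inhibitors passed, with Ctsb at −0.15, Ctsl at −0.86 and Timp2 at −0.54. None of 8 matrix receptors passed, with Itgb1, the integrin chain shared by collagen and fibronectin receptors, at 0.93, Cd44 at −1.48 and Itgav at −0.76. Of 3 TGF-beta pathway genes Tgfbr2 alone passed, and Tgfb1 was at −0.31 and Tgfbr3 at −0.08.

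Of the other cell types that the tissue could hold, erythroid cells left the most marker counts, with sums of 82 and 106 in exosomes and 1662 and 881 in tumour. Epithelial and carcinoma markers had a count for 4 of 10 genes, with Epcam and Cdh1 at 0 everywhere and Krt18 at 1 and 1 against 11 and 4. Sums of 120 and 74 counts for macrophage and monocyte markers in tumour compared with 6 and 11 in exosomes, or 21.3 and 18.7 against 8.30 and 17.6 CPM after TMM scaling. Neutrophil markers summed to 23.5 and 17.6 CPM in exosomes against 12.8 and 5.81 in tumour, and erythroid markers to 114 and 169 CPM against 295 and 223. Of 4 tested erythroid genes 2 were lower, beside 22.1% of all tested genes and 10.5% of coding genes. Skeletal muscle markers summed to 3 and 2 counts in exosomes and 11 and 1 in tumour, skin and adipose markers to 2 and 1 against 1 and 3, and T and natural killer cell markers to 1 and 0 against 0 and 0. The part of any of them in the matrix values was not tested.

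Among 947 tested protein-coding genes outside the set, those whose profile over the 4 libraries lay nearest to that of the summed members were Dync1h1, Dst, Ckap5, Prrc2a and Dstn. Likeness was the root mean square difference of centred TMM-scaled log2 CPM, which ran from 0.028 to 0.086. Their differences lay between 0.29 and 0.43, and none passed the test. Because they were picked by this likeness, differences near that of the sum follow from the choice. The nearest, Dync1h1, the heavy chain of the dynein motor, had 8 and 6 exosome counts and 48 and 29 tumour counts.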

How the data were processed

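Total RNA received 5′ and 3′ adaptors and was amplified and cut to size on a gel, per the labels' protocols. The submitters' processing notes name TopHat2 2.0.9, Cufflinks 2.1.1, Cuffdiff and GRCm38.p4, while for the counting tool, annotation, strand setting and multiple matches the sources used here give nothing. The deposited counts are whole numbers per gene without normalization. The deposited FPKM equal, within 0.0822%, each count over its gene's length and its library's total. The 4 sample tables equal the series table.

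Symbols and positions come from GENCODE M21 (GRCm38). Counts were tested with edgeR 4.0.16 (R 4.3.3): filterByExpr (minimum count 10, minimum total 15), TMM scaling, a two-sided quasi-likelihood test on group alone, and adjustment by Benjamini-Hochberg over 1442 genes. SE is the absolute difference divided by the square root of F. Replicates are described only as such, so p-values measure the spread between these libraries, which may be technical. Alternatives used DESeq2 1.42.0, limma 3.58.1 on log2(FPKM + 1) or log2(FPKM + 0.1), other scalings and filters, and each library left out, with the 1442 genes kept. Small RNA matches used blastn 2.17.0 (largest E value 0.001). The fit was run on simulated counts in which both groups shared a mean profile apart from set changes. That simulation does not cover the difference in RNA make-up between these groups.

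The members, lists and scalings were chosen with earlier results of these data known. Named genes are all members, up to 3 tested genes of each list with the highest mean, the 5 nearest profiles, and, chosen after their values were seen, single markers and matched small RNAs.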

Additional observations from a re-analysis of the deposited data

How the results depend on the processing

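Of the differences of single members, Col4a1 kept its call in all alternatives but 1 and Sparc likewise, both losing it with no filter, at 0.96 and 1.76. No filter also put Col3a1 at −0.62 and called Fn1 lower at −1.74. The median over the 14421 genes of that fit was −1.86, against 0.018 with TMM and the filter, so all these values lie above it. Library totals gave 4.56 for Col1a1, 3.34 for Col3a1, 4.16 for Col4a2, 2.06 for Col6a1 and 2.22 for Fn1, all called. On log2(FPKM + 1), limma called Col1a1 (1.33), Col3a1 (2.18), Col4a2 (1.99) and Fn1 (1.51) and put Col6a1 at 0.89. With a pseudocount of 0.1 these were 3.42, 3.17, 3.70, 2.12 and 1.61. At least 10 counts in at least 2 libraries called Col3a1 (1.0) and Col4a2 (1.83), beside a median of −0.51 over the 1152 genes of that fit. Fn1 was called lower with median-of-ratios size factors (−0.67) and coding totals (−0.92). Coding totals without Yipf1, a scaling chosen after seeing the data, called Col4a2 (1.33) and did not call Fn1 (−0.63). The replicate block called Col1a1 (1.82) and Col4a2 (1.43), so that 4 members were higher, and it changed no other call of a member. Same-numbered libraries share only a number, with a correlation of deviations of −0.02. With 1 library left out, where the lone library of a group is assumed to vary like the other group, Col1a1 ranged from 1.12 to 2.97 and Col4a2 from 1.03 to 2.00, and both were called without tumour replicate 1, while Col6a1 ranged from −1.89 to −0.14 and was not called. Members called higher were 2 with TMM, 7 with library totals, 6 with limma at either pseudocount, 0 with no filter and 2 to 4 with 1 library left out. Members called lower were 0 with TMM and 1 with median-of-ratios size factors, coding totals or no filter. Other matrix genes called higher numbered 1 with TMM, 31 with library totals, 27 and 31 with limma at pseudocounts of 1 and 0.1, 0 with coding totals, DESeq2, no filter or at least 10 counts in at least 2 libraries, and 0 to 1 with 1 library left out. Those called lower numbered 2 with TMM, 0 with library totals, with limma or with at least 10 counts in at least 2 libraries, 1 with DESeq2, 10 with no filter and 0 to 1 with 1 library left out. All genes called lower numbered 318 with TMM and 166 with library totals. The log2 ratio of the summed members was 3.14 with all counts and 0.35 with TMM sizes. Coding totals, which leave out Col3a1, gave −0.01, and 0.29 without Yipf1 in them. It was 2.18 over all protein-coding counts and 4.64 as the members' summed FPKM over the summed FPKM of all genes. The ratio was 3.88 without Fn1 and 3.04 to 3.25 with 1 library left out. The cause of these changes was not tested. Depth limits Col1a1, Col1a2, Col6a1 and Sparc most, at no more than 5 counts in an exosome library.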
